A study of Rattus norvegicus with 8 samples.

Results

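The core circadian clock genes were examined here in rat hippocampus, as the 10 genes Per1, Per2, Per3, Cry1, Cry2, Arntl, Clock, Nr1d1, Nr1d2 and Dbp. They were found by the gene name that the array design gives each probe, where Bmal1 is written Arntl. The 10 genes had 16 probes of the 30367 on the array, and all 10 entered the comparison of 18803 features, a feature being a named gene or an unnamed probe. Messenger RNA was measured on 1-colour Agilent arrays in hippocampi of male Sprague Dawley rats aged 3 months. One group of 4 rats received vehicle for 7 days and the other group of 4 received Y+I, the combination of yohimbine and imipramine named in the series title. Tissue is labelled as taken 2 h after treatment in both groups, and the labels give no dose, route or time of day. Imipramine, a tricyclic antidepressant, slows clearance of noradrenaline and serotonin from the synapse, and yohimbine is an antagonist at alpha2-adrenoceptors. Each animal had its own array, so every group value has n = 4, and no array with either drug alone was analysed here.

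The clock is a feedback loop of transcription that runs in most cells of the body, hippocampal neurons included. Bmal1 and Clock form a dimer that binds E-box elements and switches on the Per, Cry, Nr1d1, Nr1d2 and Dbp genes. Per and Cry proteins then inhibit that dimer, the REV-ERB proteins made from Nr1d1 and Nr1d2 repress Bmal1, and Dbp carries the rhythm to genes with D-box elements. In the rodent brain the levels of most of these messengers change over the day, and Per1 and Per2 also respond to neuronal activity and to glucocorticoids.

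The letters of these elements were looked for in the 250 bases upstream of annotated start sites on rat build GRCr8, taken from RefSeq. Of the 10 genes, 9 were matched, with 11 start sites. Per2 held a D-box, Arntl and Nr1d2 each held a REV-ERB/ROR core motif, and the second listed start of Nr1d1 held an E-box. Capitals mark the match, and each sequence runs 5′ to 3′ on the strand of its gene.
Per2, chr9:99497070-99497243, minus strand, D-box 192 bases upstream: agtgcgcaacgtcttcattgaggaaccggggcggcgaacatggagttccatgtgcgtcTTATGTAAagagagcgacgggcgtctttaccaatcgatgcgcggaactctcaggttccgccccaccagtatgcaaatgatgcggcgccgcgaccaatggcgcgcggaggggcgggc
Arntl (Bmal1), chr1:176766298-176766327, plus strand, core motif 15 bases upstream: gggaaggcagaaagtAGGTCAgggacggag
Nr1d1, chr10:84229628-84229657, minus strand, E-box 191 bases upstream of the second start: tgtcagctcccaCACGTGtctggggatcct
Nr1d2, chr15:9954835-9954864, plus strand, core motif 187 bases upstream: gattggaaggagAGGTCAggaacgcgcata

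The Per2 stretch is the part of its window outside the annotated gene, and the other 3 are sites of 30 bases, of which those of Arntl and Nr1d1 lie within the annotated span of their own genes. Over all 33469 windows of that length, 5.59% held the E-box CACGTG, 0.932% a D-box (TTATGTAA or TTACGTAA), 14.1% the core motif AGGTCA and 1.59% the cAMP response element TGACGTCA, on either strand. Of the 11 windows of the clock genes, 1 held the E-box, 1 a D-box, 2 the core motif and 0 the cAMP response element. These matches do not show which of the genes regulates another. A match is a string of letters and not a measured binding site.

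None of the 10 core clock genes passed the test between Y+I and vehicle. At a limma adjusted p under 0.05 the count was 0 of 10, against 2.33% of all features, and at an unadjusted p under 0.05 it was 2 of 10, against 15.6% of all features. These 2 were Per2, whose protein inhibits the Bmal1 and Clock dimer, and Nr1d1, whose protein represses Bmal1, and both were lower in Y+I. The median log2 difference (Y+I minus vehicle) over the 10 genes was -0.10, with 7 below 0, beside a median of -0.02 over all features; it was 0.06 after normexp correction, where that of all features was 0.09, and 0.04 without Y+I animals 2 and 3, whose arrays had the smallest share of spots clear of background. For 0 of the 10 did the 4 Y+I values lie wholly apart from the 4 vehicle values, a separation seen for 11.7% of all features. Values below are normalised log2 signals, meaning the log2 signal of a probe relative to the 75th percentile of its array, and each gene is compared only with itself.

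**Figure D1:**
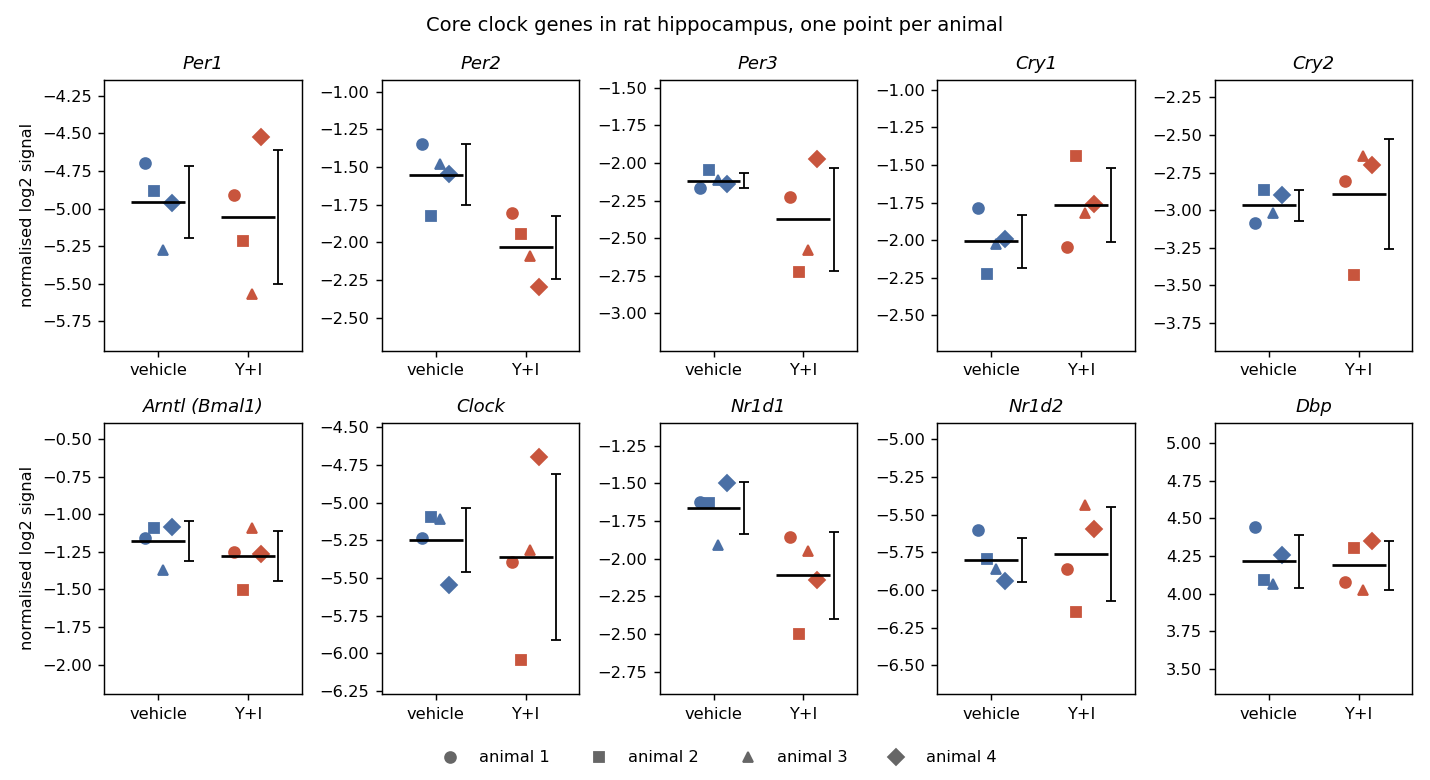
Normalised log2 signal of each core clock gene (vertical axis, log2 units relative to the 75th percentile of the array) in the 4 vehicle and 4 Y+I animals. Horizontal lines are group means, bars beside them are ± 1 SD, marker shapes give the animal number within a group, which pairs no animals, and every panel spans the same number of log2 units. Per2 and Nr1d1 sat lower in Y+I, with 1 vehicle animal in the Y+I range for each, whereas the Dbp groups lay on top of each other.

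Per2, the Period gene whose loss shortens or abolishes behavioural rhythms in mice, had the lowest p of the 10. Its probe lies at chr9:90645610-90645669 on the minus strand of build rn4, as the files place it. Its vehicle values were -1.34, -1.83, -1.48 and -1.54 in animals 1 to 4, and its Y+I values were -1.80, -1.94, -2.09 and -2.30. Vehicle animal 2 was the only one that reached into the Y+I range, by lying just under Y+I animal 1. Means were -1.55 ± 0.20 (SD, n = 4) and -2.03 ± 0.21, a log2 difference of -0.48 ± 0.14 (SE), or 1.40-fold lower in Y+I. The limma adjusted p was 0.137 (unadjusted 0.00826), which placed it at rank 1129 of the 18803 features. The 95% interval ran from 0.572 to 0.896 times the vehicle level, before any adjustment for the number of features. Per2 was also the most repeated member, with 10 spots of 1 probe on every array. The SD between those spots was 0.020 to 0.13 log2 units within an array, below the SD between animals.

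Per1, the Period gene with the best known fast response to stimulation, did not pass (probe at chr10:55866200-55866259). It measured -4.70, -4.88, -5.28 and -4.96 in vehicle and -4.91, -5.22, -5.57 and -4.52 in Y+I. The highest and the lowest of the 8 values were both Y+I animals. The log2 difference was -0.10 ± 0.22 (adjusted p = 0.878), with a 95% interval from 0.659 to 1.32 times vehicle. For Per1, ratios within that interval remained compatible with these data. Its probe cleared background on all 4 vehicle arrays and on 3 from Y+I animals. The sign for Per1 turned positive after normexp background correction (0.23) and after cyclic loess normalisation (0.10). It also did so without Y+I animal 3 (0.07). Of 6 genes tied to corticosteroid signalling (Sgk1, Fkbp5, Klf9, Tsc22d3, Nr3c1 and Nr3c2), 4 rose and 2 did not pass in the same fit, against 0.739% of all features higher. Without Y+I animals 2 and 3 Sgk1 alone passed, while Fkbp5 stood at 0.65 in place of 0.57, Klf9 at 0.62 in place of 0.55 and Nr3c2 at 0.63 in place of 0.62. With 1 animal left out, Klf9 missed the threshold in all 8 fits. Fkbp5 passed only in the fit without Y+I animal 2 (limma adjusted p = 0.0318). Nr3c2 missed it in each fit without a vehicle animal (limma adjusted p 0.060 to 0.0909) and passed in each without a Y+I animal. The difference between these genes and Per1 was not tested.

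Per3, a Period gene that is not essential for the rhythm, had an SD of 0.050 in vehicle and 0.34 in Y+I (probe at chr5:168152779-168152838, minus strand). Its brightest probe gave -2.17, -2.05, -2.11 and -2.14 in vehicle, and -2.23, -2.72, -2.58 and -1.97 in Y+I. Thus 3 Y+I animals lay below every vehicle animal and 1 lay above. The log2 difference was -0.26 ± 0.16 (adjusted p = 0.497). It was -0.14 without Y+I animal 2, -0.39 without Y+I animal 4, and 0.02 without Y+I animals 2 and 3 together.

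The cryptochromes, the main inhibitors of the Bmal1 and Clock dimer, did not pass in either direction. Cry1 (probe at chr7:20708985-20709044) measured -1.79, -2.22, -2.03 and -1.99 in vehicle and -2.04, -1.44, -1.82 and -1.76 in Y+I. Of the Y+I animals, 3 were above vehicle animals 2, 3 and 4, and the ranges overlapped. Its log2 difference of 0.24 ± 0.15 (adjusted p = 0.485) corresponds to 1.18 times vehicle, with a 95% interval from 0.938 to 1.49. Without Y+I animal 2, the highest, it was 0.13, and with array weights it was 0.11. Cry2 (probe at chr3:76802802-76802861, minus strand) measured -3.08, -2.87, -3.02 and -2.90 in vehicle and -2.81, -3.43, -2.64 and -2.70 in Y+I, with Y+I animal 2 below all others and the other three above all vehicle animals. The log2 difference was 0.07 ± 0.17 (adjusted p = 0.885). Without Y+I animal 2 it was 0.25, and without Y+I animal 3 it was -0.01.

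The activators also overlapped between groups. Arntl, which encodes Bmal1 (probe at chr1:171161969-171162028), measured -1.16, -1.09, -1.37 and -1.08 in vehicle and -1.25, -1.50, -1.09 and -1.27 in Y+I. Its log2 difference of -0.10 ± 0.12 (adjusted p = 0.729) had the narrowest standard error of the 10, and the 95% interval ran from 0.775 to 1.12 times vehicle. It was -0.029 without Y+I animal 2, -0.17 without vehicle animal 3 and -0.16 without Y+I animal 3. Clock (probe at chr14:34254357-34254416) measured -5.24, -5.10, -5.11 and -5.55 in vehicle and -5.40, -6.05, -5.31 and -4.69 in Y+I, where the highest and the lowest of all 8 values lay. Its log2 difference was -0.11 ± 0.26 (adjusted p = 0.879), and the interval from 0.618 to 1.38 times vehicle was the widest in log2 units. The Clock probe cleared background in 2 of the Y+I animals, and its difference turned to 0.19 after normexp correction and to 0.11 without Y+I animal 2.

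Of the REV-ERB pair, neither gene passed. The Nr1d1 probe spans chr10:87543165-87543519, which is 355 genomic bases for a probe of 60 bases, so its match crosses an intron. Nr1d1 measured -1.62, -1.63, -1.91 and -1.50 in vehicle and -1.85, -2.50, -1.95 and -2.15 in Y+I. Vehicle animal 3 lay below Y+I animal 1, and otherwise the vehicle animals were higher. Means were -1.67 ± 0.17 and -2.11 ± 0.29 (SD, n = 4), a log2 difference of -0.45 ± 0.16, or 1.36-fold lower in Y+I. The limma adjusted p was 0.203 (unadjusted 0.0197), and the 95% interval ran from 0.573 to 0.94 times vehicle. Nr1d2 measured -5.60, -5.80, -5.86 and -5.94 in vehicle and -5.86, -6.15, -5.43 and -5.60 in Y+I. The Y+I animals lay on both sides of the vehicle range, and the log2 difference was 0.04 ± 0.16 (adjusted p = 0.94). Nr1d2 cleared background in 2 of the Y+I animals, and its sign turned under cyclic loess (-0.05) and without any 1 of vehicle animal 4, Y+I animal 3 or Y+I animal 4 (as far as -0.07). The difference between Nr1d1 and Nr1d2 in their response was not tested.

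Dbp, the output transcription factor that is read as a marker of clock phase in many tissues, had group means of 4.21 ± 0.18 and 4.19 ± 0.16 (SD, n = 4; probe at chr1:96178423-96178482). It measured 4.44, 4.09, 4.06 and 4.26 in vehicle and 4.07, 4.30, 4.02 and 4.35 in Y+I. The 2 sets interleaved. The log2 difference was -0.03 ± 0.12 (adjusted p = 0.946), with a 95% interval from 0.807 to 1.19 times vehicle, and its sign turned without any 1 of vehicle animal 1, Y+I animal 1 or Y+I animal 3 (as far as 0.05). The Dbp interval overlapped that of Nr1d1, which ran from 0.573 to 0.94 times vehicle. The difference between the genes was not tested.

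**Figure D2:**
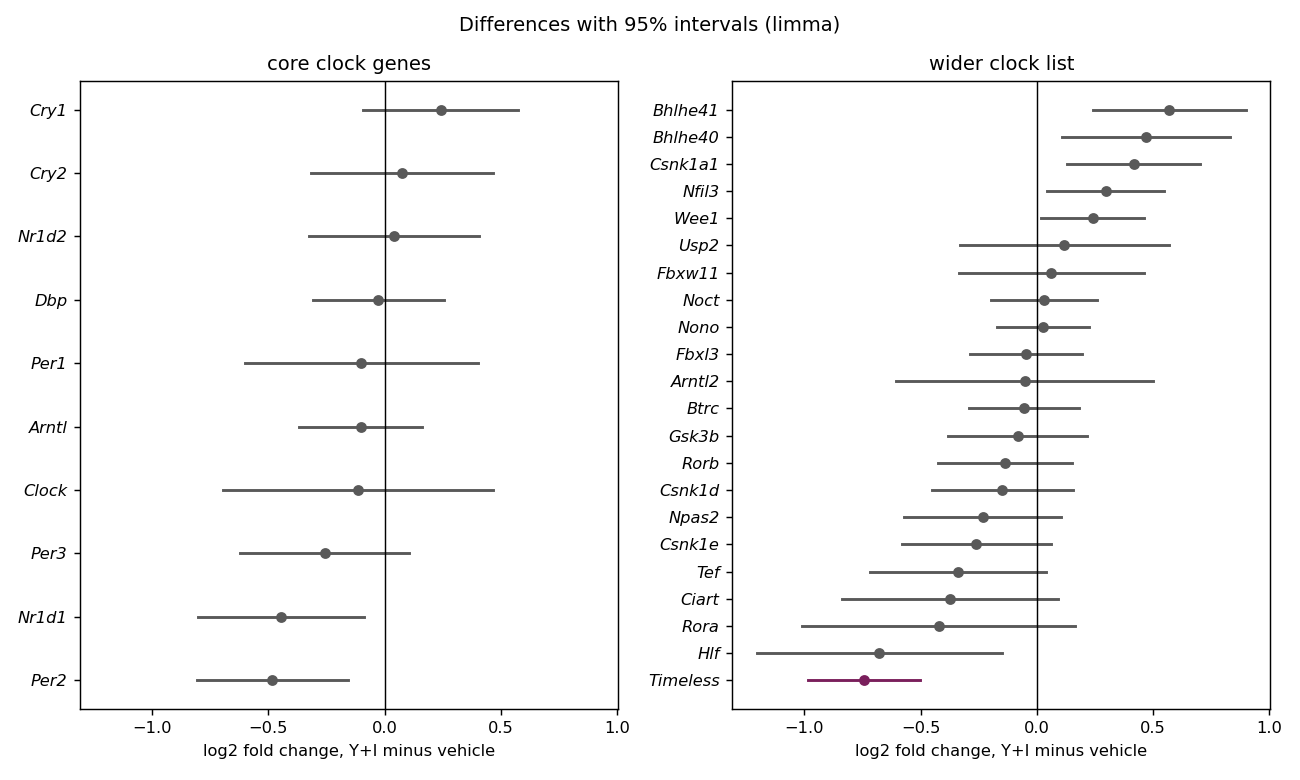
Log2 fold change (Y+I minus vehicle, horizontal axis) with 95% limma intervals for the 10 core clock genes and the measured genes of the wider clock list but 1, which is not shown, 4 animals per group. The coloured gene, Timeless, passed at an adjusted p under 0.05; among core genes the intervals of Per2 and Nr1d1 alone left out 0, without adjustment for the number of features.

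The spread between animals was larger in Y+I for 9 of the 10 genes, Dbp being the exception, as it was for 77.8% of all features. The median SD over the 10 genes was 0.17 in vehicle and 0.30 in Y+I, and over all features 0.13 and 0.24. Y+I animal 2 had the lowest Y+I value for 6 of the 10 genes (Per3, Cry2, Arntl, Clock, Nr1d1 and Nr1d2) and the highest for Cry1, while it was lowest for 32.8% of all features. Its array and that of Y+I animal 3 had the smallest share of spots well above background, 65.3% and 64.4%, against 70.9% to 79.7% on the other arrays. The lowest signal well above background was -5.38 and -5.09 on those arrays, and the Clock and Nr1d2 values there were below it, as was Per1 on the array of animal 3. Without Y+I animals 2 and 3, Per2 was at -0.50 and Nr1d1 at -0.33, the signs of Per1 (0.24), Per3 (0.02) and Clock (0.20) were positive, and the count that passed was again 0.

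All arrays came from 1 slide and 1 scan. The vehicle arrays lay on its first row and the Y+I arrays on its second, so row and treatment cannot be told apart. The labelled tissue carried all 6 listed markers of hippocampal neurons, with 0 of 6 passing. Their summed level was 4.57 to 5.19 in vehicle and 5.32 to 5.53 in Y+I (normalised log2 units). That sum is mostly Fibcd1, which averaged 4.50 in vehicle and 5.07 in Y+I. C1ql2 alone of the 6 had a log2 difference below 0 (-0.08), and Prox1 cleared background in 2 of the Y+I animals. Of 5 measured markers of thalamus and habenula, regions next to the hippocampus, 1 fell (listed 6, Gbx2 not kept by the filter), and the summed level was 1.65 to 2.14 in vehicle and 0.935 to 1.18 in Y+I. Of 6 markers of meninges, 3 fell, with a sum of 1.56 to 1.95 against 0.887 to 1.28, and of 5 endothelial markers 1 fell, with 4.01 to 4.04 against 3.60 to 3.81. Over all features, 1.6% passed as lower and 0.739% as higher. Within the thalamic, meningeal and endothelial lists, Tcf7l2 (0.09), Dcn (0.19) and Cldn5 (0.008) had log2 differences above 0. Of 6 oligodendrocyte markers 1 rose, with a sum of 7.31 to 7.45 against 7.28 to 7.69. Among 5 astrocyte markers 0 passed (5.81 to 5.93 against 5.79 to 6.20), as among 4 microglial markers (2.56 to 2.68 against 2.39 to 2.96) and the 2 of 5 choroid plexus markers measured (-2.50 to 2.17 against -1.80 to 0.51). For the suprachiasmatic nucleus, the central clock, which is not part of the hippocampus, Prok2, Six6 and Lhx1 did not pass the filter. Vip and Avp were measured with 0 passing. Vip averaged 1.16 in vehicle and 0.65 in Y+I, and Avp -3.32 and -3.00. Their sum (1.14 to 1.31 against 0.494 to 1.02) is therefore mostly Vip, and it is not taken as a level of that nucleus. Whether tissue of that nucleus was present was not tested. The part of these cell types and of the array quality in the clock gene values was not tested, and in bulk tissue fewer cells of a type and less RNA per cell cannot be told apart.

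Several members had more than 1 probe, which gives a second reading of the same animals rather than more replicates. In a fit over all kept probes, the 3 Dbp probes gave log2 differences of -0.03 ± 0.13, -0.08 ± 0.14 and -0.15 ± 0.13 (SE), and vehicle animal 1 was the highest vehicle animal on each. For Per3 the 3 probes disagreed in sign. The probe at transcript position 3358 gave -0.26 ± 0.16, the one at 3298 gave -0.53 ± 0.34 and the one at 3137 gave 0.26 ± 0.18. The probe at 3298 cleared background in 1 of the Y+I animals. The second Arntl probe gave -0.27 ± 0.31 and the second Clock probe -0.38 ± 0.28, both in the direction of the first. That second Clock probe also cleared background in 1 of the Y+I animals. The limma adjusted p of these further probes was 0.518 to 0.825, so 0 of them passed. In a comparison chosen after the values were seen, the difference between the most 5′ and the most 3′ probe of a gene was set between groups. It came to 0.52 ± 0.25 for Per3 (adjusted p = 0.869), and also did not pass for Arntl, Clock or Dbp, where 0.0992% of 2016 genes with such a pair passed.

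**Figure D3:**
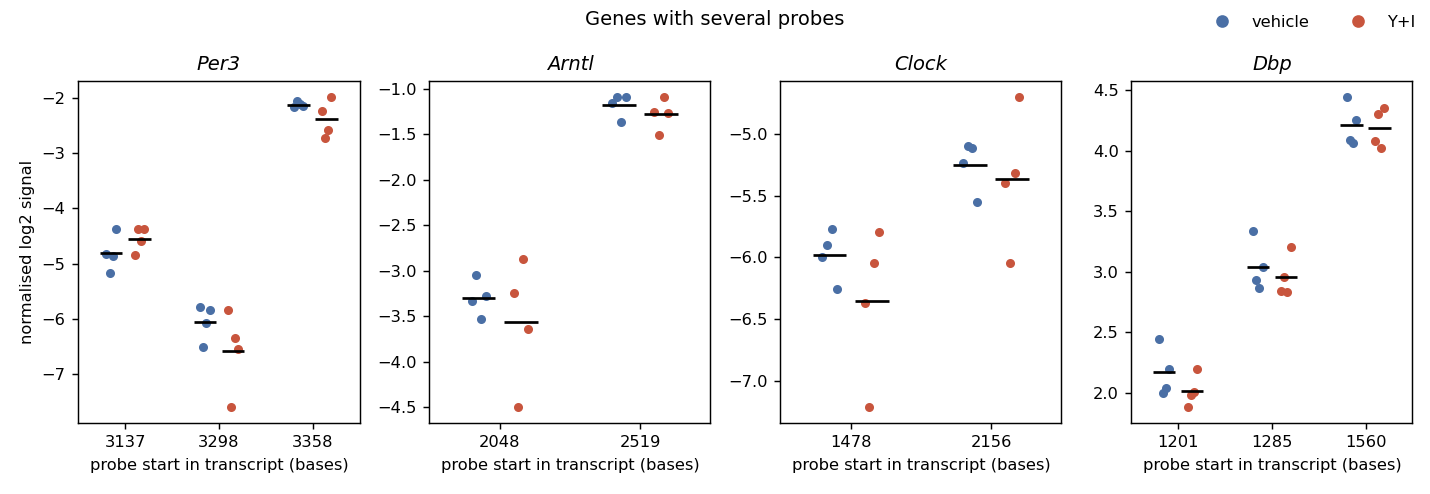
Normalised log2 signal (vertical axis, log2 units) of every probe of the 4 core clock genes with more than 1 probe, by animal, in vehicle and Y+I. Points are animals. The Per3 probes part in direction, with the probe at position 3137 higher on average in Y+I and the other two lower, and the 3 Dbp probes keep vehicle animal 1 on top among vehicle animals.

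The wider clock list held 24 other genes of the loop, of which Fbxl21 had no probe and 23 were tested. It covers the ROR activators, the kinases and ubiquitin ligases that time Per and Cry breakdown, the PAR-bZIP relatives of Dbp with their repressor Nfil3, and the Bhlhe40 and Bhlhe41 repressors. Of the 23, 1 passed and was lower, against 1.6% of all features lower and 0.739% higher. At an unadjusted p under 0.05 there were 7 of 23, against 15.6% of all features, and for 8 the groups did not overlap, 5 higher and 3 lower in Y+I, against 5.04% and 6.65% of all features. The median log2 difference was -0.06, with 14 genes below 0.

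The gene that passed was Timeless, which in mammals acts mainly in DNA replication and has a debated place in the clock. It measured -4.45, -4.30, -4.48 and -4.58 in vehicle and -5.08, -5.14, -5.18 and -5.39 in Y+I, with no overlap. The log2 difference was -0.74 ± 0.11 (limma adjusted p = 0.0125), or 1.67-fold lower. Its probe cleared background in all 4 vehicle animals and 3 of the Y+I animals, so it entered the test only through vehicle, the group where it was higher, and it is not tested when all 8 arrays must clear background. After normexp correction the difference was -0.09 (adjusted p = 0.624). In the deposited value table it was -0.45 (adjusted p = 0.351), and without Y+I animals 2 and 3 it was -0.78 (adjusted p = 0.0576). It also missed the threshold under cyclic loess (-0.55, adjusted p = 0.0972).

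The next genes by p were 3 repressors of clock transcription, a kinase and a relative of Dbp, and 0 of these 5 passed. Bhlhe41 measured -5.50, -5.51, -5.59 and -5.37 in vehicle and -5.13, -5.20, -4.71 and -4.64 in Y+I, so every Y+I animal was above every vehicle animal. The log2 difference was 0.57 ± 0.15 (adjusted p = 0.0935), and it passed under cyclic loess (adjusted p = 0.0188), in the value table (adjusted p = 0.0372) and with no filter (adjusted p = 0.0447). Bhlhe41 missed the threshold in each fit with 1 animal left out (limma adjusted p 0.0640 to 0.208). It also missed it with animal number as a fixed block (limma adjusted p = 0.156). Its relative Bhlhe40 had -2.07, -2.29, -2.53 and -2.33 against -1.43, -1.98, -2.07 and -1.88. The lowest Y+I animal was just above the highest vehicle animal, and the difference was 0.47 ± 0.16 (adjusted p = 0.188). With array weights, the only setting where Bhlhe40 passed, it was 0.69 (adjusted p = 0.0357). Nfil3, which competes with Dbp for D-boxes, had -3.26, -3.18, -3.11 and -3.08 against -2.60, -2.98, -2.91 and -2.96. The groups did not overlap, and the difference was 0.30 ± 0.11 (adjusted p = 0.235). With array weights, the only setting where Nfil3 passed, it was 0.43 (adjusted p = 0.0445). Csnk1a1, a casein kinase, stood at 0.42 ± 0.13 (adjusted p = 0.142). Hlf, a PAR-bZIP factor, stood at -0.68 ± 0.23 (adjusted p = 0.193), at 0.01 after normexp correction, and at -0.44 without vehicle animal 1, whose value of -4.38 was above the -5.50 to -5.15 of the other three.

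**Figure D4:**
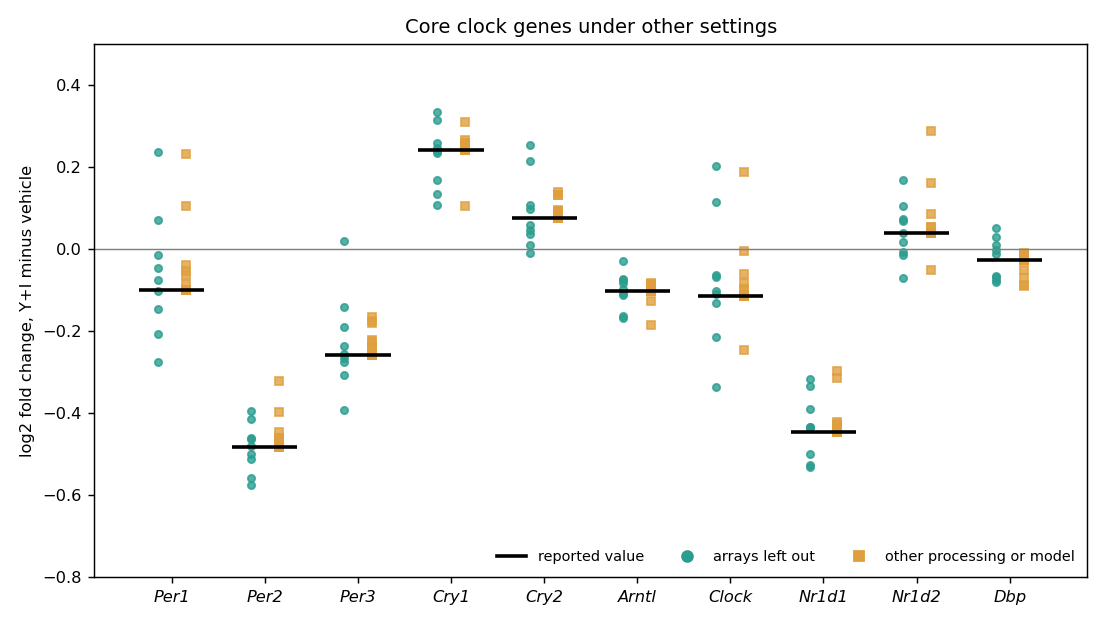
Log2 fold change (Y+I minus vehicle, vertical axis) of each core clock gene; black lines are the reported values, circles are fits with arrays left out and squares are other processing or models. Per2 stays between -0.58 and -0.32 and Nr1d1 between -0.53 and -0.30, while Per1, Per3, Cry2, Clock, Nr1d2 and Dbp have points on both sides of 0.

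Across alternatives the Per2 difference ran from -0.58 to -0.32, with an adjusted p of 0.072 to 0.302. For Nr1d1 it ran from -0.53 to -0.30, with an adjusted p of 0.123 to 0.436. The genes whose deviations from their group means were most like those of Per2 over the 8 arrays, among 13270 candidates, were Ankrd54 (Pearson 0.955, Spearman 0.833), Cideb (0.954, 0.929), Zdhhc1 (0.947, 0.952) and Leng9 (0.944, 0.905). These are descriptions of 8 arrays that share a slide, picked as the highest of many, with no test.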

How the data were processed

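Hippocampal RNA of 8 rats, 4 per group, was labelled with Cy3 and hybridised to 1 array per animal, per the labels' protocols. Images were read by the authors with Agilent Feature Extraction 10.5.1.1, per the file headers, and the processed signal intensity used here is background-subtracted and not scaled between arrays. Processed log2 values for these arrays were also deposited as a series table (r of at least 0.998992 with the scanner values, medians from -3.51 to -3.35, 75th percentile near 0.01); how it was centred is unknown, and it served only as an alternative.

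From the 58717 noncontrol spots of each array, outlier spots were left out, log2 intensity minus the 75th percentile of the array was taken, and spots of a probe were averaged. Between 350 and 1051 spots per array were outliers and 0 were saturated. A probe was kept if Feature Extraction marked it as clear of background in every animal of a group, with at least 3 values per group, and the brightest kept probe stood for a gene; all 10 clock genes were kept, 3 of them (Per1, Clock and Nr1d2) only through the vehicle group, as were Timeless and Hlf of the wider list. For 1 gene of the wider list the values are not reported here. Probe names were updated through RefSeq (17996 of 30367 probes by accession; 7418 had no name). Groups were compared with limma 3.58.1 (lmFit and eBayes in R 4.3.3) by a two-sided test, and p-values were adjusted by Benjamini-Hochberg over all 18803 features and a threshold of 0.05; the fit was tested on simulated data. The number of arrays limits the precision. Named genes were all 10 clock genes, the genes of the wider list that passed and its 6 with the smallest p, and the 4 features most like Per2. The members and lists were chosen with earlier results of these data known. Alternatives covered scaling, background correction, the value table, filters, probe summary, blocks, weights, the threshold and left-out animals.

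Animal numbers recur in both groups, but the correlation of deviations between same-numbered animals was -0.11 to 0.05, so the numbers were not taken to pair animals. Promoter windows came from RefSeq (GRCr8) and probe positions from the files (rn4).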

Additional observations from a re-analysis of the deposited data

Results flagged for a closer look

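Hlf in Y+I animal 3, at -6.06 on the normalised log2 scale, stood apart from the other three Y+I animals, which lay between -5.71 and -5.66. It was 1 of 32 groups of 4 animals examined, and chance flags about 1 in 20 groups. The Hlf probe cleared background in 2 of the Y+I animals. On the array of Y+I animal 3 the lowest signal well above background was -5.09, so the flagged value lay below it.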

How the results depend on the processing

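The count of core clock genes that passed was 0 in the main analysis and in all 22 alternatives. Over all features the main count of 439 became 665 with cyclic loess, 3883 with no filter (of 26724 features), 898 with array weights, 775 at an adjusted p of 0.1, 164 without Y+I animals 2 and 3, and 121 to 355 with 1 animal left out. With animal number as a fixed replicate block it was 144, and 384 as a random block. Neither block changed a call of a core gene. With the fixed block Timeless (adjusted p = 0.0539), Fkbp5 (0.109), Klf9 (0.0997) and Nr3c2 (0.0864) lost their calls. With the random block they kept them (limma adjusted p 0.0153 to 0.0414). Calls were 139 higher and 300 lower in the main analysis, but 400 and 202 after normexp correction and 3357 and 526 with no filter. The wider list had 1 call. The count became 0 with normexp, with the filter on all 8 arrays, with the fixed replicate block and without Y+I animals 2 and 3. It became 2 with no filter or at an adjusted p of 0.1, and 3 with array weights. In each fit with 1 animal left out it was 1. The cause of these shifts was not tested.

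Signs turned as follows. Under normexp, Per1 was 0.23, Clock 0.19 and Hlf 0.014. Under cyclic loess, Per1 was 0.10 and Nr1d2 -0.052. Without Y+I animals 2 and 3, Per1 was 0.24, Per3 0.019 and Clock 0.20. With 1 animal left out, Per1 ran from -0.28 to 0.071, Cry2 from -0.010 to 0.25, Clock from -0.34 to 0.11, Nr1d2 from -0.070 to 0.17, Dbp from -0.080 to 0.050 and Nr3c1, a corticosteroid receptor, from -0.15 to 0.0074. Over the same fits Cry1 ran from 0.13 to 0.33 and Arntl from -0.17 to -0.029, with no change of sign. The filter on all 8 arrays keeps 7 of the 10 genes, so Per1, Clock and Nr1d2 have no value there. Signal near background limits what those 3 genes show.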
